A study of Mus musculus with 14 samples.

Results

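The 10 genes described here carry out the steps that make, move and use pyruvate and lactate in mouse cells, namely Pdhb, Pdha1, Pdhx, Dlat, Dld, Ldha, Ldhb, Mpc1, Mpc2 and Pkm. They are 10 of the 20242 gene symbols in the data. All belong to 1 pathway, and they were listed with results of these data known. Pdhb was selected on its measured RPKM, which dropped with trichostatin A (TSA), so its values are given as a description with no test. RNA was measured in 14 single SCNT (somatic cell nuclear transfer) embryos at the two-cell stage, each made by fusing a whole cumulus cell with an enucleated oocyte of the B6D2F1 strain. All were activated with strontium chloride, cultured in medium with deionized bovine serum albumin and collected, according to the labels, 28 h after nuclear transfer. Of these embryos 3 were controls without small molecules, 1 received vitamin C (VC) at 10 µg/ml from 0 to 8 h after the start of activation (early-VC) and 2 received it from 8 to 15 h (late-VC). Another 3 received TSA, an inhibitor of histone deacetylases, at 50 nM from 0 to 8 h (TSA-only), while 2 received TSA and VC together from 0 to 8 h (TSA-with-VC) and 3 received TSA from 0 to 8 h followed by VC from 8 to 15 h (TSA-then-VC). RNA was extracted from whole single embryos, so both cells of an embryo were measured together. The libraries were made from 2 of the 9 µl of that RNA and amplified by PCR.

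Pyruvate kinase makes pyruvate in the last step of glycolysis, lactate dehydrogenase converts pyruvate and lactate into each other, and the mitochondrial pyruvate carrier brings pyruvate across the inner mitochondrial membrane. There, the pyruvate dehydrogenase (PDH) complex turns pyruvate into acetyl-CoA for the TCA cycle. Early cleavage-stage mouse embryos are known to live on pyruvate and lactate rather than glucose, and the PDH subunits are encoded by separate genes whose proteins act together in 1 assembly.

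Levels are given in RPKM, reads scaled to transcript length and to all reads counted in the embryo, with the entries of a gene summed. The scaling accounts for transcript length between genes, and other differences in how genes were captured or counted were not measured. Between 3021540 and 13589389 reads were counted per embryo, which puts 3 reads on a 1 kb transcript at 0.221 RPKM in the deepest library and at 0.993 RPKM in the shallowest. These limits count reads, which after PCR are not independent molecules, and so cover counting error only. A level of 1 RPKM or more is called detected below, and 3322 to 6728 transcript entries were detected per embryo. Of 13 oocyte and maternal markers, all were detected somewhere and their summed level was 554 to 2082 RPKM, while all 8 two-cell markers in the data were detected somewhere and summed to 3.88 to 1172 RPKM. Of 15 cumulus and granulosa markers, 11 stayed below 1 RPKM in all 14 embryos and 4, Amhr2, Has2, Star and Nr5a2, were detected somewhere. The summed level of the 15 was 1.25 to 185 RPKM. Nr5a2, with the highest mean of them, was detected in all 14 embryos, at 1.09 to 92.9 RPKM. Eno1, Fh1 and Suclg1, enzymes of glycolysis and the TCA cycle that most cells use, were listed at 0 in all 14 embryos, so a listed 0 is not read here as the absence of a transcript.

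Among the 10 genes, Pkm was detected in all 14 embryos, Pdhb in 13 and Ldhb in 11. Pdhx was detected in 8 embryos, Mpc1 and Mpc2 in 5 each, Pdha1 and Ldha in 4 each, and Dlat and Dld in 2 each. Of the 4988 genes detected in at least 6 embryos, which include 4 of the 10, 845 (16.9%) were detected in all 14. Pdhb and Pkm together made up over 50% of the summed RPKM of the 10 genes in 11 of the 14 embryos. The exceptions were TSA-only replicates 1 and 3, with 5.17% and 48.7%, and TSA-with-VC replicate 1, with 6.59%. Among the 11, TSA-only replicate 2 had 95.3%, but of a summed level of only 13.5 RPKM. The selection of Pdhb for its drop with TSA bears on these shares.

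**Figure D1:**
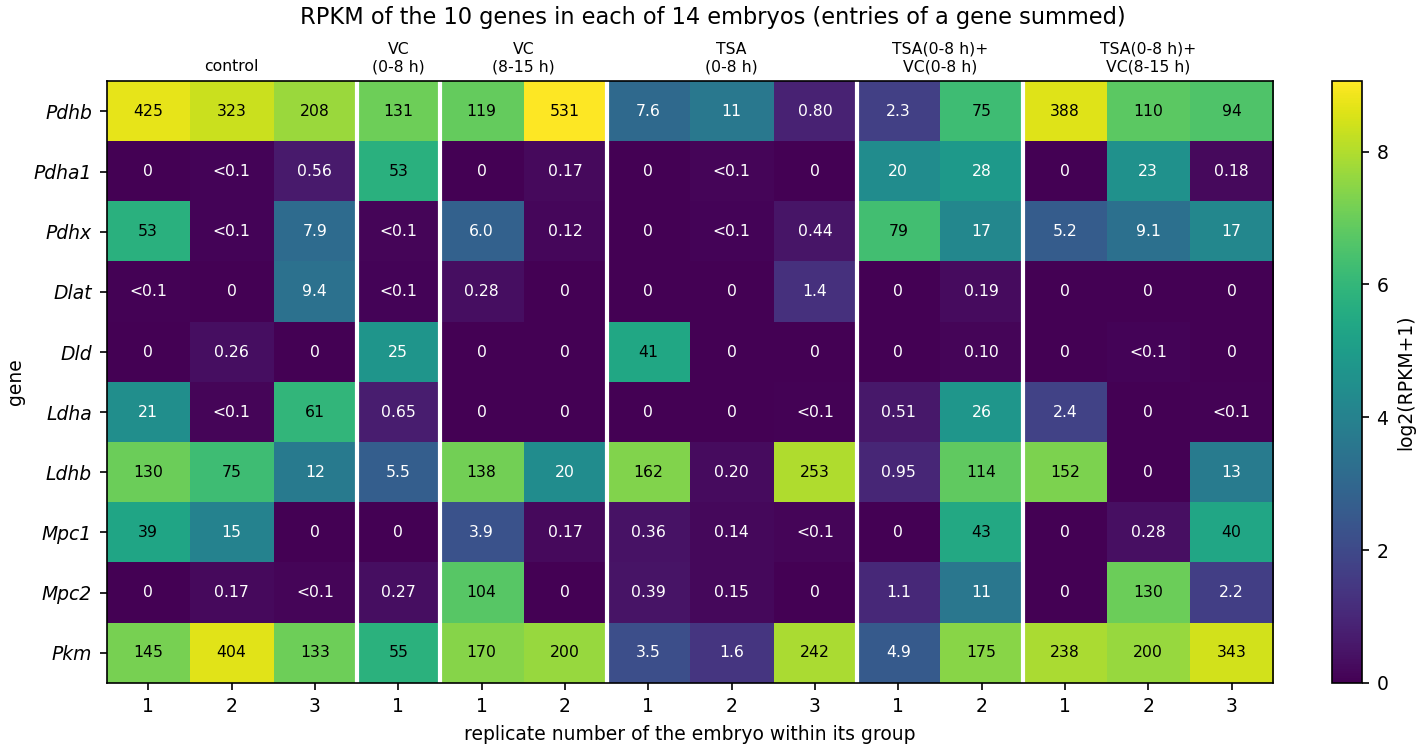
Each column is an embryo, each row a gene, and each cell gives the RPKM, with the colour on the log2(RPKM+1) scale and the hours of TSA and VC above the columns. The rows of Pdhb and Pkm are filled in nearly all columns, while Dlat and Dld are above 1 RPKM in 2 embryos each.

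Pdhb encodes the beta subunit of E1, the pyruvate decarboxylase that starts the PDH reaction, and lies at chr14:8998505-9005506 on the minus strand of mm9. Its level was 425, 323 and 208 RPKM in control replicates 1 to 3, a mean of 319 ± 109 (SD, n = 3). With TSA alone it was 7.58, 11.2 and 0.802 RPKM, a mean of 6.53 ± 5.28 (SD, n = 3). These groups did not overlap, which also held, in the same direction, for 11.6% of the genes tested. RPKM gives the share of an embryo's reads and not its amount of RNA, which was not measured. The levels rested on 3425, 3297 and 4188 reads in the controls and on 34, 130 and 14 reads in the TSA-only embryos. With TSA followed by VC, Pdhb was at 388, 110 and 94.0 RPKM, a mean of 197 ± 165 (SD, n = 3), which overlapped the controls and lay wholly above the TSA-only embryos. Of the genes tested between these TSA groups, 18.2% likewise lay wholly above, and Pdhb had been selected for its drop with TSA.

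The groups of 1 and 2 embryos spread over most of this range. Pdhb in the TSA-with-VC embryos was at 2.27 and 75.3 RPKM, the first within the range of the TSA-only embryos and the second above it. Without TSA, it was at 131 RPKM in the early-VC embryo and at 119 and 531 RPKM in the late-VC embryos. The lowest of the 6 embryos without TSA was thus at 119 RPKM, and 1 of the 8 with TSA, a TSA-then-VC embryo, exceeded it. On the log2(RPKM+1) scale, TSA-only embryos were lower than controls by a difference of -5.74, and the difference was -5.64, -4.73 and -6.85 within the 3 sets of libraries that share an identifier, each of which held 1 embryo of either group. TSA-then-VC embryos differed from controls by -0.94 and from TSA-only embryos by 4.80, with 5.50, 3.18 and 5.72 within the sets.

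The promoters of Pdhb, Pdhx and Pkm are shown because these were the genes of the group, other than the rarely detected ones, that were low in at least 2 of the 3 TSA-only embryos and higher in all 3 TSA-then-VC embryos than in those 2. Each sequence is the 250 bases before the annotated start in RefSeq on GRCm38.p6, read 5′ to 3′ on the gene's strand. Capitals mark matches to the GC box (GGGCGG) and the CCAAT box (CCAAT), in the given letters or, for CCAAT, as the reverse complement. The window of Pdhb is chr14:8172993-8173242 (minus strand), that of Pdhx is chr2:103073514-103073763 (minus strand) and the first of 2 windows of Pkm is chr9:59656326-59656575 (plus strand).
Pdhb: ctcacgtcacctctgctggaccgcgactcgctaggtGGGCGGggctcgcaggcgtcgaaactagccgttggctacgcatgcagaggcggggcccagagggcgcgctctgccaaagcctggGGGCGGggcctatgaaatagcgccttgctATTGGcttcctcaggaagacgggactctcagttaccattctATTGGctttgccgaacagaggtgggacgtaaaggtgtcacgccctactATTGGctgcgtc
Pdhx: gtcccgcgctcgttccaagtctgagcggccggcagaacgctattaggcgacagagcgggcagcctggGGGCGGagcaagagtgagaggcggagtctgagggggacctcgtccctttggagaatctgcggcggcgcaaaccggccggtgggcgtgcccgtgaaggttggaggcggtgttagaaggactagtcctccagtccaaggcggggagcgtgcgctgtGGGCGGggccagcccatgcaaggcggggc
Pkm: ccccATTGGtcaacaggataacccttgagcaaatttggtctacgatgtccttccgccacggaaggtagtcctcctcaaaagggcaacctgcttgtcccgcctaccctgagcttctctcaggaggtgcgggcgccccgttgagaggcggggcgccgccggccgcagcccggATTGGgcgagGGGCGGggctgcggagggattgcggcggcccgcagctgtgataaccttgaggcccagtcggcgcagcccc

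The windows of Pdhb and Pdhx each held 2 GC boxes and that of Pkm held 1. Pdhb had 3 CCAAT boxes and Pkm 2, while the Pdhx window had none. The second window of Pkm, chr9:59656977-59657226, had neither box and is not shown. The GC content of the windows shown was 61.6%, 68.4% and 66.4%, above the median of 52.4% over 32851 promoter windows of the same length. Over the whole group of 10 genes, 8 of 13 windows had a GC box and 6 a CCAAT box on either strand, which 32.7% and 33.8% of all windows hold. No window of the group held TATAAA, found in 12.4% of all windows, or the palindromic NRF1 motif, found in 0.782%. The E box CACGTG was present for Ldha and the ETS motif CCGGAAG for Mpc1, against 6.02% and 6.91% of all windows. A match is a description of the letters in these windows only.

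Pdha1, at chrX:156560141-156576345 on the minus strand of mm9, encodes the alpha subunit of E1 and pairs with the Pdhb product. It was at 52.5 RPKM in the early-VC embryo, at 19.98 and 27.9 RPKM in the TSA-with-VC embryos and at 22.8 RPKM in TSA-then-VC replicate 2. In the remaining 10 embryos it was between 0 and 0.560 RPKM, the 3 controls and the 3 TSA-only embryos among them. The 3 embryos that received VC from 0 to 8 h were thus all among the 4 with detected Pdha1, and 1 of the other 11 was. This was noticed after the values were seen and was not tested. Of the 834 genes detected in exactly 4 embryos, 28 (3.36%) included all 3 of those embryos. In the 4 embryos with detected Pdha1, Pdhb was at 131, 2.27, 75.3 and 110 RPKM, in the order above. Both E1 subunits were thus detected in each of them, but Pdhb was detected in 13 of all 14 embryos, which makes this nearly given.

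Pdhx encodes the E3-binding protein, which anchors E3 to the core of the complex, and lies at chr2:102861232-102913670 on the minus strand of mm9. Its level was 53.2, 0.0577 and 7.90 RPKM in the controls and 0, 0.0507 and 0.438 RPKM in the TSA-only embryos. It was 5.20, 9.07 and 17.3 RPKM in the TSA-then-VC embryos, on 57, 178 and 536 reads. The TSA-only embryos overlapped the controls through control replicate 2, and lay wholly below the TSA-then-VC embryos. The TSA-with-VC embryos had 79.3 and 17.3 RPKM, so that all 5 embryos with TSA and VC in either window had detected Pdhx. This was seen only once the values were known, and 57 (10.4%) of the 547 genes detected in exactly 8 embryos likewise included those 5. With VC alone it was at 0.0930 RPKM in the early-VC embryo and at 6.02 and 0.121 RPKM in the late-VC embryos.

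Dlat (chr9:50442738-50467885, minus strand, mm9), the E2 acetyltransferase that forms the core of the complex, was detected at 9.45 RPKM in control replicate 3 and 1.41 RPKM in TSA-only replicate 3, and was between 0 and 0.276 RPKM in the other 12 embryos. Dld (chr12:32016429-32036302, minus strand, mm9), the E3 dehydrogenase that is shared with other dehydrogenase complexes, was at 40.7 RPKM in TSA-only replicate 1 and 25.1 RPKM in the early-VC embryo, and between 0 and 0.260 RPKM elsewhere. Neither gene was detected in more than 1 embryo of any group. Of the 5 PDH genes, 1 was detected in 4 embryos, 2 in 5 embryos and 3 in 5 embryos, and no embryo had 4 or 5. The controls had 2, 1 and 3 of the 5 genes in replicates 1 to 3. These counts rest on the limit of 1 RPKM, since any reads at all were present for 2 to 5 of the genes, and for all 5 in TSA-with-VC replicate 2 and the early-VC embryo.

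Ldhb (chr6:142438769-142456477, minus strand, mm9) encodes the heart-type subunit of lactate dehydrogenase and Ldha (chr7:54096845-54110997, plus strand, mm9) the muscle-type subunit. Ldhb was at 130, 74.8 and 12.3 RPKM in the controls, 162, 0.198 and 253 RPKM in the TSA-only embryos and 152, 0 and 12.7 RPKM in the TSA-then-VC embryos. It was at 0.950 and 114 RPKM in the TSA-with-VC embryos, 5.46 RPKM in the early-VC embryo and 138 and 19.9 RPKM in the late-VC embryos. High and low embryos occurred in each group with more than 1 embryo, and all groups of 3 overlapped. The highest level of Ldhb was in TSA-only replicate 3, the embryo with the lowest level of Pdhb.

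Ldha was detected at 21.3 and 61.1 RPKM in control replicates 1 and 3, at 26.1 RPKM in TSA-with-VC replicate 2 and at 2.41 RPKM in TSA-then-VC replicate 1. It was 0, 0 and 0.0468 RPKM in the TSA-only embryos, below all 3 controls, although the highest of the former and the lowest of the latter, at 0.0802 RPKM, had 1 read each. Ldhb made up 100% and 99.98% of the summed RPKM of both genes in TSA-only replicates 1 and 3, while replicate 2 had 2 reads of Ldhb and 0 of Ldha, too few for a share. It made up 85.9%, 99.9% and 16.8% in control replicates 1 to 3. Control replicate 3 was the only embryo of the 13 with any lactate dehydrogenase reads in which Ldha exceeded Ldhb. The reads of Ldha were all assigned to 1 of its 2 entries, so its transcript forms could not be told apart.

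Mpc1 (chr17:8475769-8490526, plus strand, mm9) and Mpc2 (chr1:167391168-167411345, plus strand, mm9) encode the subunits that together form the mitochondrial pyruvate carrier. Mpc1 was detected at 38.6 and 15.3 RPKM in control replicates 1 and 2, 3.91 RPKM in late-VC replicate 1, 43.1 RPKM in TSA-with-VC replicate 2 and 39.9 RPKM in TSA-then-VC replicate 3. Mpc2 was detected at 104 RPKM in late-VC replicate 1, 1.08 and 11.1 RPKM in the TSA-with-VC embryos, and 130 and 2.19 RPKM in TSA-then-VC replicates 2 and 3. No control and no TSA-only embryo had detected Mpc2, and all 5 embryos with it were among the 8 that had received VC, which was noticed after the values were seen and was not tested. Of the 694 genes detected in exactly 5 embryos, 67 (9.65%) were likewise detected in VC embryos only. Both subunits were detected in 3 embryos, late-VC replicate 1, TSA-with-VC replicate 2 and TSA-then-VC replicate 3.

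Pkm, the pyruvate kinase gene of most tissues other than liver, lies at chr9:59504383-59527182 on the plus strand of mm9. It was at 145, 404 and 133 RPKM in the controls, a mean of 227 ± 153 (SD, n = 3), and at 3.54, 1.63 and 242 RPKM in the TSA-only embryos, a mean of 82.2 ± 138 (SD, n = 3). After TSA and then VC it was at 238, 200 and 343 RPKM, a mean of 260 ± 74.5 (SD, n = 3). TSA-only replicate 3 was within the range of the controls, and the other TSA-only embryos were far below it. In the remaining groups Pkm was at 54.6 RPKM with early-VC, 170 and 200 RPKM with late-VC and 4.92 and 175 RPKM with TSA-with-VC. The 3 embryos with the lowest Pkm had all received TSA, as had 8 of the 14 embryos, and Pdhb was at 7.58, 11.2 and 2.27 RPKM in them. TSA-only replicates 1 and 2 are among these, and Pdhb had been selected for its drop with TSA, so its low level there was part of that choice. In TSA-only replicate 3, by contrast, Pkm was abundant and Pdhb was not. The reads of Pkm were also all assigned to 1 of its 2 entries, so the M1 and M2 forms could not be told apart.

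**Figure D2:**
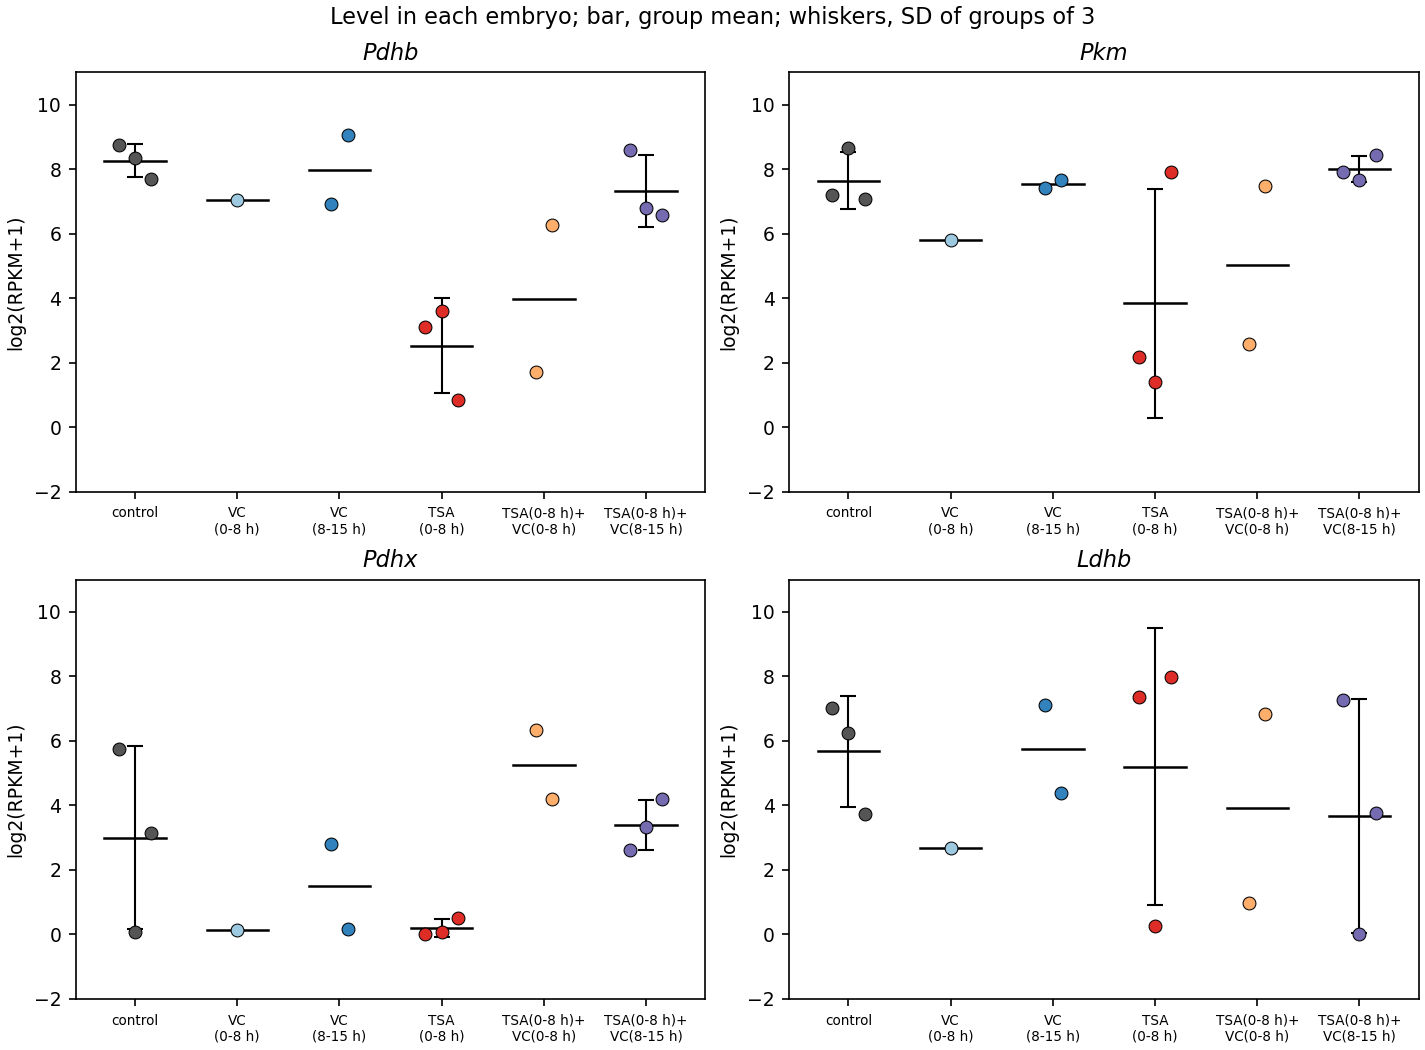
Points are single embryos on the log2(RPKM+1) scale (vertical axis) by treatment (horizontal axis), horizontal bars are group means, and whiskers are the SD of groups of 3. The 3 TSA-only points of Pdhb lie below all controls, those of Pkm are split between 1.63 and 242 RPKM, and those of Ldhb span the whole range.

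The first question was how embryos with TSA alone differed from controls. Of the 10 genes, Pdhb, Pkm and Ldhb passed the filter, which asked for 1 RPKM or more in each of the 3 embryos of a group. The limma fit over 2471 genes called 0 genes (0%) at an adjusted p-value under 0.05, and 368 genes (14.9%) had an unadjusted p-value under 0.05. Pkm differed by -3.81 ± 1.68 (SE) on the log2(RPKM+1) scale, under that unadjusted threshold and with an adjusted p of 0.276 in the limma fit, and Ldhb by -0.47 ± 1.87 (SE), with an adjusted p of 0.952. The difference of Pkm thus did not pass the threshold after adjustment, and the median of all genes tested was -0.40. It was -5.01, -7.27 and 0.86 within the 3 sets of libraries, so 2 of 3 sets had the lower level with TSA. Ldhb changed sign when TSA-only replicate 2 was left out, to 2.00.

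The second question was how embryos with TSA followed by VC differed from controls, and 0 of 3297 genes (0%) were called, with 585 (17.7%) at an unadjusted p-value under 0.05. Here Pdhb, Pdhx, Ldhb and Pkm passed the filter, Pdhx through the TSA-then-VC group and Ldhb through the controls only. In the limma fit Pkm differed by 0.35 ± 0.76 (SE, adjusted p = 0.856), Pdhx by 0.39 ± 1.74 (SE, adjusted p = 0.939) and Ldhb by -1.99 ± 1.83 (SE, adjusted p = 0.622). None of these 3 differences passed the threshold, the median of all genes tested was 0.78, and the sign of Pkm turned to -0.46 with median-ratio scaling. Pdhx became -1.07 without control replicate 2 and -0.02 without TSA-then-VC replicate 3.

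The third question was what VC after TSA added to TSA alone, and again 0 of 3115 genes (0%) were called, with 569 (18.3%) at an unadjusted p-value under 0.05 and 501 (16.1%) of them higher. The median difference of all genes tested was 1.21 on the log2(RPKM+1) scale, and 0.06 with median-ratio scaling. Pdhx was 3.19 ± 0.81 (SE) higher, with an adjusted p of 0.067 in the limma fit, and Pkm was 4.16 ± 1.61 (SE) higher, with an adjusted p of 0.163, both under 0.05 before adjustment. Neither passed the threshold, and both differences were larger than the median of all genes. With median-ratio scaling they were 2.46 and 2.97. Pdhx separated the groups without overlap, as did 566 (18.2%) of the genes tested in the same direction. It passed the filter only through the group in which it was higher, which favours such a difference, and its p-values are not read as support. It came under the threshold with a pseudocount of 0.1 (adjusted p = 0.0121 in limma) or a minimum of 5 RPKM (0.00125), which both keep that selection, while with the filter blind to the groups the adjusted p was 0.555, and over all alternatives its adjusted p ranged from 0.00125 to 0.719.

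**Figure D3:**
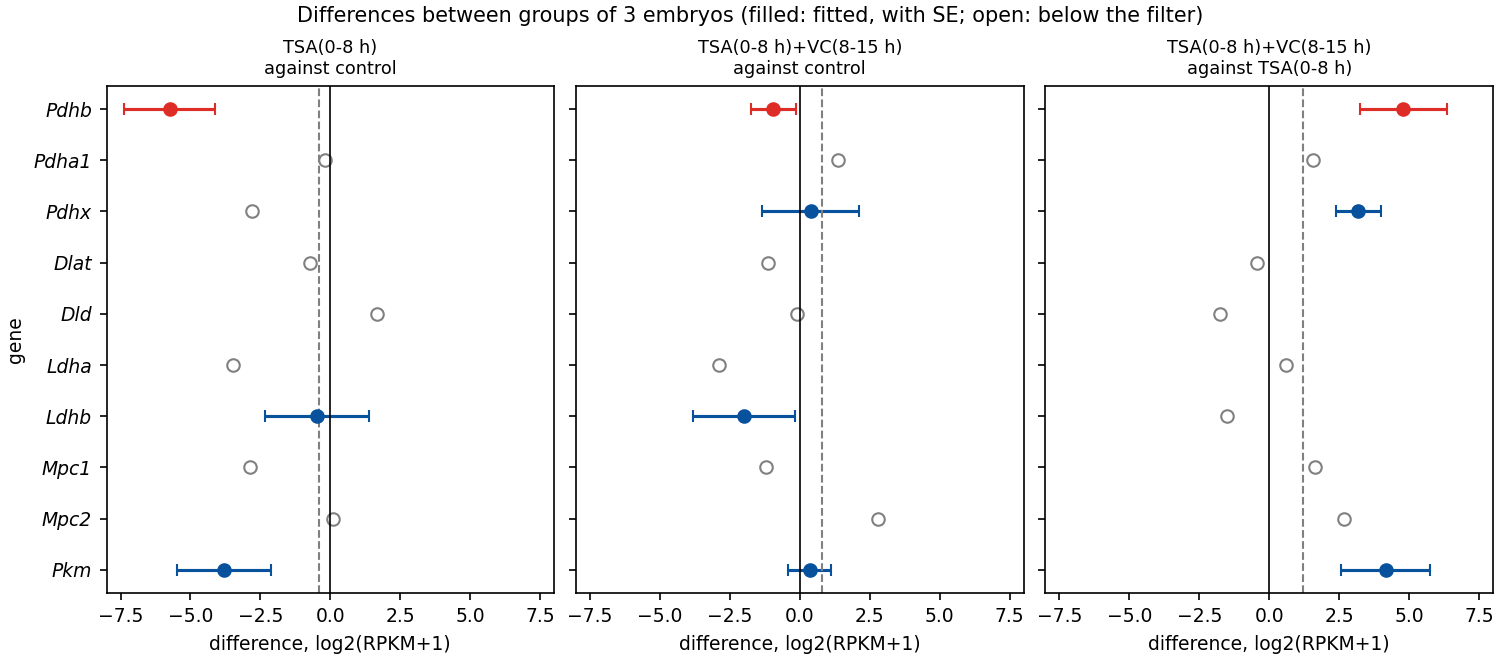
Differences between groups of 3 embryos on the log2(RPKM+1) scale (horizontal axis) for the 10 genes (vertical axis), with filled points and SE bars for genes that passed the filter, open points for those that did not, and a dashed line at the median of all genes tested. In the right panel, where TSA-then-VC is set against TSA-only, Pdhb, Pkm and Pdhx lie to the right of that median of 1.21. So do the open points of Pdha1, Mpc1 and Mpc2, while those of Ldha, Dlat, Ldhb and Dld lie to its left (0.59, -0.42, -1.52 and -1.77). The points of Pdha1 and Mpc1 rest on TSA-then-VC replicate 2 (22.8 RPKM) and replicate 3 (39.9 RPKM), respectively. The median covers only genes that passed the filter.

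Some other features differed between these groups. The TSA-then-VC embryos lay above the controls and the TSA-only embryos in entries detected and in two-cell markers. The summed levels of oocyte and maternal and of cumulus markers overlapped between all of these groups. The TSA-only embryos had 3556 to 4249 transcript entries detected, the controls 3819 to 5439 and the TSA-then-VC embryos 5489 to 5720. The summed level of the 8 two-cell markers was 10.6 to 45.3, 3.88 to 130 and 167 to 464 RPKM in the same order, that of the 13 oocyte and maternal markers was 975 to 2082, 585 to 1443 and 606 to 1402 RPKM, and that of the 15 cumulus markers was 1.25 to 185, 1.61 to 67.1 and 5.67 to 138 RPKM, with Fshr, Hsd3b1, Inha, Inhba and Lhcgr listed at 0 throughout. Their part in the differences of Pdhb, Pkm and Pdhx was not tested. The number of detected genes of the group followed the entries detected, from 2 of 10 in TSA-only replicate 2 to 8 of 10 in TSA-with-VC replicate 2, which had the fewest entries but 1 and the most entries of all embryos, respectively.

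**Figure D4:**
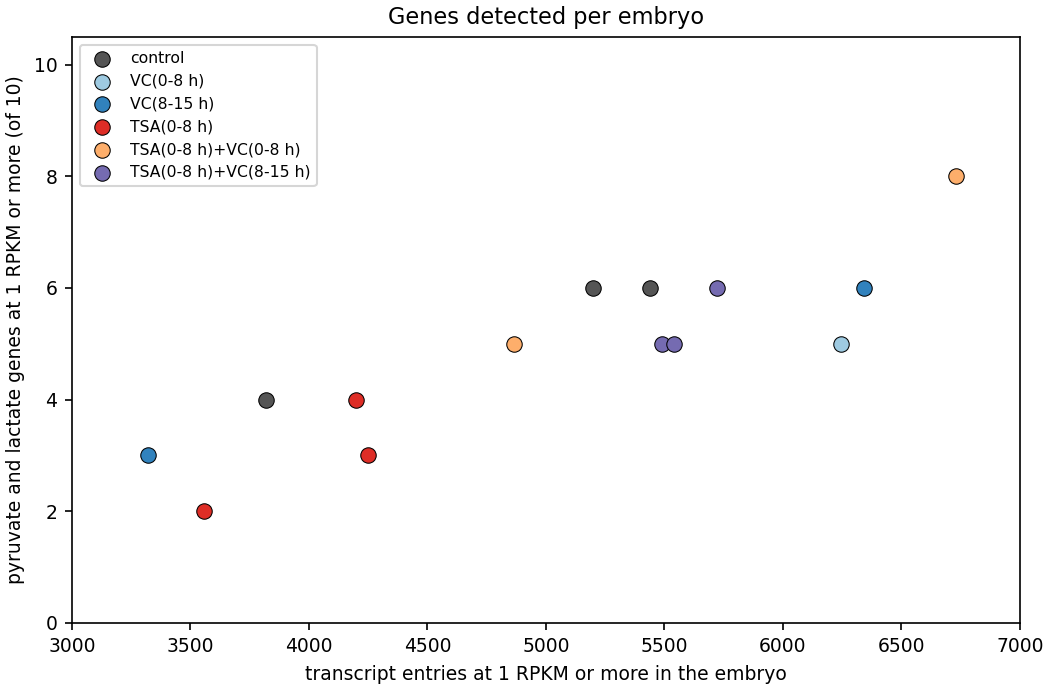
Each point is an embryo, with the number of transcript entries at 1 RPKM or more on the horizontal axis and the number of the 10 genes at 1 RPKM or more on the vertical axis, coloured by treatment. The 3 TSA-only embryos have 2 to 4 of the genes, and 3556 to 4249 entries. The 3 TSA-then-VC embryos have 5 or 6 of the genes, and 5489 to 5720 entries. The controls have 4 to 6 of the genes, the late-VC embryos 3 to 6, the TSA-with-VC embryos 5 to 8 and the early-VC embryo 5. Pdhb, selected for its drop with TSA, is among the genes counted.

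A fit of all 14 embryos, with TSA and the VC window as terms, used the groups of 1 and 2 embryos as well. It tested 4988 genes, Pdhb, Pkm, Ldhb and Pdhx among them, and called 0 (0%) for TSA and 1 (0.02%) for late VC, none of them in the group, while 5.57% and 8.12% had an unadjusted p-value under 0.05. For TSA, Pkm differed by -1.69 ± 0.97 (SE), with an adjusted p of 0.967 in limma, while Ldhb differed by -0.71 ± 1.31 (SE) and Pdhx by 0.45 ± 1.32 (SE), each with an adjusted p of 0.999. Pdhb differed by -3.40. For late VC, Pkm was 2.24 ± 1.08 (SE) higher, under 0.05 before adjustment and with an adjusted p of 0.594 in limma, and Pdhx was 0.98 ± 1.47 (SE) higher and Ldhb differed by -0.86 ± 1.46 (SE), with adjusted p-values of 0.925 and 0.938 in limma. The sign for Ldhb turned for TSA without TSA-only replicate 2, to 0.24, and that for Pdhx without the early-VC embryo, to -0.71.

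Whether late VC made a different difference with and without TSA was fitted as an interaction over 11 embryos and 6551 genes, and 0 (0%) were called, with 294 (4.49%) at an unadjusted p-value under 0.05. For Pkm, the difference between late-VC embryos and controls was -0.11 on the log2(RPKM+1) scale, and after TSA it was 4.16. The interaction was 4.26 ± 1.98 (SE) for Pkm, under 0.05 before adjustment and with an adjusted p of 0.895 in limma. The corresponding differences were -0.28 and 4.80 for Pdhb and -1.51 and 3.19 for Pdhx. The interaction was 4.70 ± 3.07 (SE) for Pdhx, 4.10 ± 2.17 (SE) for Ldha and 3.50 ± 2.78 (SE) for Mpc1, with adjusted p-values of 0.895, 0.895 and 0.924 in limma. It was -1.60 ± 2.78 (SE) for Ldhb and -0.57 ± 2.66 (SE) for Mpc2. Only 2 embryos had late VC without TSA, and none of these 6 genes passed the threshold after adjustment.

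The other genes of the pathway were taken from a list of 60, of which 59 were in the data, and covered the regulators of PDH, lipoylation enzymes and sister complexes, transporters, glycolysis and the TCA cycle. None was called in limma in any of the 6 comparisons. Between TSA-only embryos and controls, 9 of them were tested and 1, the glycolytic aldolase Aldoa, was lower at an unadjusted p-value under 0.05 (9.39% of all genes tested were), with a difference of -6.29 ± 2.00 (SE, adjusted p = 0.139). Its level was 82.6, 477 and 127 RPKM in the controls and 3.07, 1.36 and 0.113 RPKM in the TSA-only embryos. It passed the filter through the controls only, which favours a lower level with TSA, and its p-value is not read as support. Aldoa was at 166, 419 and 35.6 RPKM in the TSA-then-VC embryos. The TSA-only values did not overlap those of either group, as for 11.6% of all genes tested against the controls and 18.2% of those tested against TSA-then-VC.

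When TSA-then-VC was set against TSA-only, 13 of the list were tested and 5 were higher and 0 lower at an unadjusted p-value under 0.05, while 16.1% of all genes tested were higher. Each of the 5 passed the filter only through the group in which it was higher, which favours such a difference, and their p-values are not read as support. They were Aldoa (5.96 ± 1.73 SE, adjusted p = 0.0784), the malate dehydrogenase Mdh2 (5.52 ± 1.78 SE, adjusted p = 0.0997) and the succinate dehydrogenase subunit Sdha (2.52 ± 0.70 SE, adjusted p = 0.0747). Lias, the lipoyl synthase whose product is the cofactor that E2 of the PDH complex carries, was 3.04 ± 0.83 (SE) higher, with an adjusted p of 0.0697 in limma, and the glucose transporter gene Slc2a3 was 3.81 ± 1.38 (SE) higher, with an adjusted p of 0.134. Lias was at 0.198, 0 and 0 RPKM in the TSA-only embryos and at 26.8, 2.70 and 5.52 RPKM in the TSA-then-VC embryos. It was low in the controls as well, at 0, 0.0873 and 0 RPKM. Against the controls 14 were tested, and 5 were higher and 0 lower at that p-value (14% of all genes tested were higher), each of which again passed only through the TSA-then-VC group, with Lias, Mdh2 and Sdha again and with Pdp2, a phosphatase that activates PDH (4.16 ± 1.73 SE, adjusted p = 0.203), and the mutase Pgam1 (4.44 ± 1.86 SE, adjusted p = 0.208).

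In the fit of all 14 embryos, 21 of the list were tested. For TSA, 0 were past an unadjusted p-value of 0.05, against 5.57% of all genes tested. For late VC, 3 were higher at that p-value, against 6.68% of all genes tested. These were Mdh2 (5.12 ± 1.49 SE, adjusted p = 0.284), Lias (2.89 ± 1.15 SE, adjusted p = 0.496) and Sdha (2.79 ± 1.27 SE, adjusted p = 0.587). In the interaction, 33 were tested, and 1 was higher and 1 lower at that p-value, which 4.49% of all genes tested passed in either direction. They were Aldoa, higher (9.55 ± 2.64 SE, adjusted p = 0.895), and Idh3g, a subunit of isocitrate dehydrogenase, lower (-6.92 ± 3.38 SE, adjusted p = 0.895).

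The 10 genes did not vary as a block over the 14 embryos. The highest Pearson correlation of log2(RPKM+1) between any pair was 0.606, for Pdhb and Pkm, followed by 0.576 for Dlat and Ldha, which rests on the few embryos with reads of either, and the lowest was -0.484, for Pdha1 and Ldhb. These correlations are descriptions over 14 embryos that share treatments and library sets. Those of Pdhb, here and below, include the TSA-only embryos on whose values it was selected. Among the genes detected in at least 6 embryos, the pattern most like that of Pdhb was that of Fgd6 (r = 0.919), before Ddias (r = 0.849) and Clic4 (r = 0.827). The closest were Adss for Pkm (r = 0.953), Tasor for Pdhx (r = 0.887) and Slc5a3 for Ldhb (r = 0.828).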

How the data were processed

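RNA of 14 single SCNT embryos was sequenced (3, 1, 2, 3, 2 and 3 embryos per group). Low-quality reads and bases and adaptors were removed, the rest was aligned to mm9 with TopHat2 according to the submitters' processing notes, and reads on exons were counted. The authors deposited these as RPKM, which corrects for library total and for transcript length. The labels gave groups and replicate numbers, and the library identifier gave 3 sets of libraries, whose nature the labels do not state. The study did the nuclear transfers of the TSA-then-VC embryos in separate experiments, and for the other groups the p-values may measure a spread within an experiment.

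Of 25650 entries, 25250 had a symbol in RefSeq (20242 genes), and entries of a gene were summed. All 10 genes were matched, with coordinates from GENCODE on mm9 and promoters from RefSeq on GRCm38.p6. Since 1 read adds a fixed step to an RPKM value, reads were recovered, with whole reads (within 0.0001) for 100.0% of the 14532 entries seen in at least 2 embryos. Of 3533 genes with several entries, 1831 had an entry that was 0 in all embryos and another that was not.

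The authors used edgeR on counts. Here limma (version 3.58.1, R 4.3.3) was fitted to log2(RPKM+1) of all genes past the filter, with a trend and Benjamini-Hochberg adjustment at 0.05. Pairs of groups of 3 were filtered at 1 RPKM in all 3 embryos of either group, the fit of 14 at 1 RPKM in 6 embryos and the interaction at 1 RPKM in 3 of 11. A fold change on this scale understates the change of low genes. The fit was tested on simulated data. Named genes were the 10 genes, pathway genes at an unadjusted p-value under 0.05, and, over genes detected in at least 6 embryos, those with the highest Pearson correlation. The members and lists were chosen with earlier results of these data known. Alternatives were a pseudocount of 0.1, no filter, quantile normalization, a minimum of 5 RPKM, median-ratio scaling, single entries, eBayes without trend, limma-voom on recovered reads, a filter blind to the groups, the replicate block and leaving out each embryo. Python 3.11.15, numpy 2.4.6, pandas 2.3.3 and matplotlib 3.10.9 were used. Protein sequences were not used here.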

Additional observations from a re-analysis of the deposited data

How the results depend on the processing

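Genes called at an adjusted p-value under 0.05 depended strongly on the setting. For TSA-only against control (0 called) the count was 99 with a pseudocount of 0.1, 107 with a minimum of 5 RPKM, 2 with quantile normalization, 3 with single entries, 1 with limma-voom, and 5 with either the filter blind to the groups or the replicate block. For TSA-then-VC against control (0) it was 107 with a pseudocount of 0.1, 183 with a minimum of 5 RPKM, 1 with single entries, 319 with limma-voom and 7 with the replicate block. Against TSA-only (0) it was 176 with a pseudocount of 0.1, 213 with a minimum of 5 RPKM, 1 with quantile normalization, 3 with median-ratio scaling, 283 with limma-voom and 168 with the replicate block. For TSA in all 14 embryos (0) it was 1 with a pseudocount of 0.1, 2 with single entries and 2 with limma-voom. For late VC in all 14 (1) it was 0 with median-ratio scaling, eBayes without trend, quantile normalization, a minimum of 5 RPKM or the replicate block, 3 with single entries and 5 with limma-voom, and for the interaction (0) it was 2 with limma-voom. Leaving out 1 embryo gave 0 to 274, 0 to 75, 0 to 295, 0 to 2, 0 to 5 and 0 to 1 genes, in the same order. In the pairwise comparisons, 274 and 75 were reached without control replicate 2, and 201, 295 and 288 without TSA-then-VC replicates 1 to 3, while the other omissions gave 0. The cause was not tested.

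Of the 9 genes other than Pdhb, only Pdhx and Ldha passed the threshold under any alternative. For TSA-then-VC against TSA-only, 1 of them, Pdhx, passed with a pseudocount of 0.1 (5.56, adjusted p = 0.0121), a minimum of 5 RPKM (adjusted p = 0.00125), the replicate block (adjusted p = 0.0443) and without each TSA-then-VC embryo (adjusted p = 0.0419, 0.0267 and 0.0332), so that leaving out 1 embryo gave 0 to 1 of them. In each of these settings it passed the filter only through the TSA-then-VC embryos, where it was higher, so these calls are not read as support. Of all genes tested, the pseudocount, minimum and block settings called 176 of 3115, 213 of 2270 and 168 of 3115. Without TSA-then-VC replicates 1 to 3, the calls were 201 of 3748, 295 of 3755 and 288 of 3676. In TSA-only against control, leaving out 1 embryo gave 0 to 2. Without control replicate 2 the filter needed 2 controls only, and Ldha (-5.20, adjusted p = 0.0282) and Pdhx (-4.26, adjusted p = 0.0391) were tested and called. Each passed through the 2 controls where it was high, which favours a difference, so these calls are not read as support. Of all 3401 genes tested, 274 were called there. In the other 4 comparisons the range was 0 to 0.

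Directions turned for Ldhb in TSA-only against control with quantile normalization (0.0574), without control replicate 1 (0.21) and without TSA-only replicate 2 (2.00, with a range of -1.86 to 2.00 over embryos left out), for Ldhb in all 14 embryos without TSA-only replicate 2 (0.24 for TSA, range -1.28 to 0.24) and without TSA-then-VC replicate 2 (0.20 for late VC, range -2.01 to 0.20), and for Ldhb in the interaction without the latter (0.23, range -4.08 to 0.23). They also turned for Pkm in TSA-then-VC against control with median-ratio scaling (-0.46), for Pdhx there without control replicate 2 (-1.07) or TSA-then-VC replicate 3 (-0.02, range -1.07 to 1.77), for Pdhx with TSA in all 14 without the early-VC embryo (-0.71) or late-VC replicate 2 (-0.12, range -0.71 to 1.30), and for Mpc2 in the interaction without TSA-then-VC replicate 1 (0.88, range -3.93 to 0.88). The median of all genes moved with median-ratio scaling from -0.40 to -0.01, from 0.78 to 0.10 and from 1.21 to 0.06 in the 3 pairwise comparisons.

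Same-numbered embryos were not treated as pairs in the main fits. Correlations of their deviations from group means were between -0.05 and 0.05, but with groups of 3 embryos this cannot exclude a pairing. In the 3 pairwise comparisons, same-numbered embryos also share the library identifier, so the block is 1 for that as well. The depth of 3021540 reads in the shallowest embryo limits what can be said of Dlat, Dld, Mpc1, Mpc2, Pdha1 and Ldha, which were mostly at a few reads or none. Such values were not confined to shallow libraries. Dld and Mpc1 had 0 reads in control replicate 3, the deepest library, and Dld had 276 reads in TSA-only replicate 1, the shallowest. What sets these values was not tested.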
